A study of Mus musculus with 35 samples.

Results

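Chromatin accessibility of hepatocyte nuclei was compared between BALB/c and C57BL/6N mice that had received phosphate-buffered saline (PBS) and carried no tumor. The libraries were chosen by their labels alone: 8 BALB/c libraries (the PBS controls of the C26 and NC26 cohorts, 4 each) and 7 C57BL/6N libraries (the PBS controls of the MC38 cohort, 4, and of the 8025 cohort, 3), which is 15 of the 35 libraries of the series. The features were the 174209 autosomal regions among 177904 merged accessible regions of 400 bp. Of these, 156438 had enough reads to be tested and 17771 did not. The series implanted tumor lines into syngenic hosts, C26 and 8025 as cachexia-inducing lines and NC26 and MC38 as weight-stable ones, and each cohort had its own PBS animals.

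All animals of both strains carried the CAG-Sun1/sfGFP allele, a Cre-dependent nuclear envelope tag, together with Albumin-Cre, so that tagged nuclei are those in which Albumin-Cre had acted. Nuclei were captured by the INTACT method, which pulls down tagged nuclei on beads, and about 25000 nuclei per animal were transposed. Livers were collected at zeitgeber time (ZT) 9. Each library has its own animal ID, so the spread between libraries is a spread between animals. The labels used here give no age, no sex and no substrain of BALB/c. They also do not say how the tag and the Cre allele were brought into either strain. Strain went together with cohort, since the C26 and NC26 controls were all BALB/c and the MC38 and 8025 controls all C57BL/6N.

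BALB/c and C57BL/6 are classical inbred strains that differ at many single bases, insertions, retroviral elements and gene copies. Such differences can change which transcription factors bind an enhancer or promoter, and open chromatin is then gained or lost in cis. Hepatocytes of the strains are known to differ in major histocompatibility complex (MHC) haplotype, in the serpin clusters, in major urinary proteins and in drug metabolism. Reads were aligned to mm10, the genome of a C57BL/6 animal, so a read from BALB/c that crosses a base difference or lies in sequence missing from mm10 can be misplaced or lost. Read placement, copy number and accessibility cannot be told apart in these values.

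The Serpina1 genes show how close the compared sequences can be. They encode alpha-1 antitrypsin, the main protease inhibitor that hepatocytes secrete, in tandem copies, and their promoters held some of the largest strain differences. RefSeq promoter sequences (GRCm38.p6, the mm10 assembly, minus strand, 250 bases before to 50 after the start site) matched all 5 copies, Serpina1a at chr12:103863570-103863869, Serpina1b at chr12:103738140-103738439, Serpina1c at chr12:103904901-103905200, Serpina1d at chr12:103773584-103773883 and Serpina1e at chr12:103956848-103957147. They are reference sequences of C57BL/6 and not of BALB/c. Capitals mark bases that differ from the base held by a majority of the copies aligned at that position, where at least 3 copies are aligned. Positions with no majority base are in lower case.
Serpina1a: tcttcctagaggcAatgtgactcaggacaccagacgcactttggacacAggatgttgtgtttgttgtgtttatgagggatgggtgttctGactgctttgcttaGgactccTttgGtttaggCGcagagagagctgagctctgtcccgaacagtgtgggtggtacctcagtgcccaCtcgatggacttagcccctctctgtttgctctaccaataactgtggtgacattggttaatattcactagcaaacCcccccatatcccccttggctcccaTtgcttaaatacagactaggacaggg
Serpina1b: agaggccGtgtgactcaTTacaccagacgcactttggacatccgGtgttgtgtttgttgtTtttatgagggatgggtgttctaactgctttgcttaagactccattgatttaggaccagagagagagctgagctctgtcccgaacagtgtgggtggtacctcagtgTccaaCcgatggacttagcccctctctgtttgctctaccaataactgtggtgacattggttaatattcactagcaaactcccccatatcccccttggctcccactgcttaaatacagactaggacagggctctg
Serpina1c: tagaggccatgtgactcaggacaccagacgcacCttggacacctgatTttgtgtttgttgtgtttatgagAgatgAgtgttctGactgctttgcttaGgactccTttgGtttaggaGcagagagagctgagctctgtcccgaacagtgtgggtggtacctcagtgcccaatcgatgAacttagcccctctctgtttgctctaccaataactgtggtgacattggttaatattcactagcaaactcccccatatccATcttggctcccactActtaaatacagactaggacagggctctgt
Serpina1d: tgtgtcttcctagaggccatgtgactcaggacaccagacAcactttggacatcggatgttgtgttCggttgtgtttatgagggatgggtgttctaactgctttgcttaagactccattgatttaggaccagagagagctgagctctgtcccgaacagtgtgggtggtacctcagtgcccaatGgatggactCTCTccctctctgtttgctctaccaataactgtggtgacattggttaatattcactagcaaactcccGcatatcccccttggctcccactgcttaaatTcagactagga
Serpina1e: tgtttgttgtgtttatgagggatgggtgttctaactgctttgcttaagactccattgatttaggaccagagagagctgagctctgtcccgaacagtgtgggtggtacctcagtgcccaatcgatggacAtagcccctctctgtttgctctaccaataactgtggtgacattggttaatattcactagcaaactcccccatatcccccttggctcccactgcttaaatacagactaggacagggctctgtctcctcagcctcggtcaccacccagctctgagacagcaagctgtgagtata
Over the aligned bases, pairs of copies were 91.7% to 98.4% identical. Of 238 positions aligned in all 5 copies, 211 were the same base, and the longest run shared by all was 59 bases. That run holds GTTAAT, the core of the motif of the hepatocyte factor HNF1. Searched on both strands, GTTAAT was in 5 of the 5 copies and in 7.10% of 32851 RefSeq promoters, which describes letters and not binding.

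The libraries of the strains were of like depth. BALB/c libraries held 15.5 ± 3.59 M tags (SD, n = 8, range 12.1 to 23.4) and C57BL/6N libraries 15.3 ± 2.42 M (SD, n = 7, range 11.3 to 19.4; exact permutation test over 6435 arrangements, two-sided, p = 0.892). The share of tags in the merged regions was 44.1 ± 4.87% in BALB/c and 50.7 ± 7.93% in C57BL/6N (exact permutation p = 0.0726). Promoter regions took 41.5 ± 0.568% of the signal in BALB/c and 42.5 ± 0.785% in C57BL/6N (exact permutation p = 0.0171). Signal at 8 promoter regions of the Y chromosome summed to 106 to 143 scaled tags in BALB/c and 120 to 198 in C57BL/6N, so no library lacked it. BALB/c had 6 libraries in the first run of library numbers (series A) and 2 in the second (series B), and C57BL/6N had 2 in series A and 5 in series B. The first principal component held 34.2% of the variance and separated the strains. Spearman correlations across regions were 0.871 to 0.932 within a strain (49 pairs) and 0.798 to 0.880 between strains (56 pairs).

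Regions with hepatocyte markers as nearest genes carried most of the marker signal, with 8912 to 11939 summed scaled tags in BALB/c libraries and 11084 to 15804 in C57BL/6N libraries. Macrophage markers summed to 119 to 174 scaled tags in BALB/c and 139 to 192 in C57BL/6N, at 6 of 12 genes with a region. Neutrophil markers summed to 205 to 301 in BALB/c and 214 to 291 in C57BL/6N, at 7 of 10 genes. Endothelial markers, at 9 of 10 genes, summed to 988 to 1292 in BALB/c and 1043 to 1505 in C57BL/6N, and stellate cell markers, at 8 of 10 genes, to 276 to 457 in BALB/c and 309 to 567 in C57BL/6N. Cholangiocyte markers, at 7 of 8 genes, summed to 355 to 497 in BALB/c and 478 to 649 in C57BL/6N, and lymphocyte markers, at 4 of 10 genes, to 352 to 500 in BALB/c and 257 to 541 in C57BL/6N. The ranges of these sums overlapped between the strains for every marker list. Region by region, hepatocyte markers had 2 of 342 higher and 43 lower in BALB/c (13.2%, median log2 difference -0.17), against 8742 higher and 10344 lower of 141661 regions within 100 kb of a start site (13.5%). Cholangiocyte markers had 0 of 42 higher and 6 lower (median -0.26), endothelial markers 1 of 73 higher and 3 lower, and stellate cell markers 1 of 26 higher and 3 lower. Macrophage markers had 2 of 22 higher and 1 lower, neutrophil markers 5 of 21 higher and 1 lower, and lymphocyte markers 4 of 13 higher and 0 lower. The part of other cells in the strain differences was not tested.

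Some libraries departed from their strain along whole chromosome stretches. Markers were chosen in 8 other animals, the tumor-bearing NC26 (BALB/c) and MC38 (C57BL/6N) groups, as the 2840 regions that differed at least 4-fold between them. On an index where 1 is the NC26 tumor-bearing mean and 0 the MC38 tumor-bearing mean, library medians over 120 windows of 10 Mb were 0.92 to 0.99 for the 8 BALB/c libraries and -0.02 to 0.13 for the 7 C57BL/6N libraries. Thus each library matched its labelled strain over most of these 120 windows. Windows with fewer than 10 markers had no index, so the rest of the autosomes was not read.

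BALB/c libraries, alone or several together, fell between the strains in blocks. C26 PBS replicate 2 had an index of 0.27 over the first 30 Mb of chromosome 10 (56 markers), where the other BALB/c libraries had 0.97 to 1.00. NC26 PBS replicate 4 had 0.43 over the first 50 Mb of chromosome 11 (78 markers; others 0.92 to 1.02) and 0.52 over 110 to 130 Mb of chromosome 2 (45 markers; others 0.89 to 1.00). On chromosome 3, NC26 PBS replicate 3 had 0.54 over 50 to 130 Mb (96 markers), replicate 4 had 0.57 over 50 to 120 Mb and replicate 1 had 0.66 over 80 to 130 Mb. Several libraries were low together on chromosome 9 at 40 to 50 Mb (25 markers), where C26 PBS replicates 1, 2 and 3 had 0.39, 0.34 and 0.19 and NC26 PBS replicate 4 had 0.39. On chromosome 14, C26 PBS replicate 2 had 0.48 over 70 to 90 Mb (45 markers), and NC26 PBS replicate 2 had 0.56 and 0.66 in the 2 windows there. Other windows were low as well. At 50 to 60 Mb of chromosome 1 (11 markers), C26 PBS replicates 2 and 3 had 0.37 and 0.58. NC26 PBS replicates 1 and 2 had 0.57 and 0.43 there. At 70 to 80 Mb of chromosome 18 (22 markers), C26 PBS replicate 1 had 0.60 and NC26 PBS replicate 1 had 0.58. With limits of 0.7 and 0.3, set after the values were seen, 92 of the 120 windows held no BALB/c library under 0.7.

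**Figure D1:**
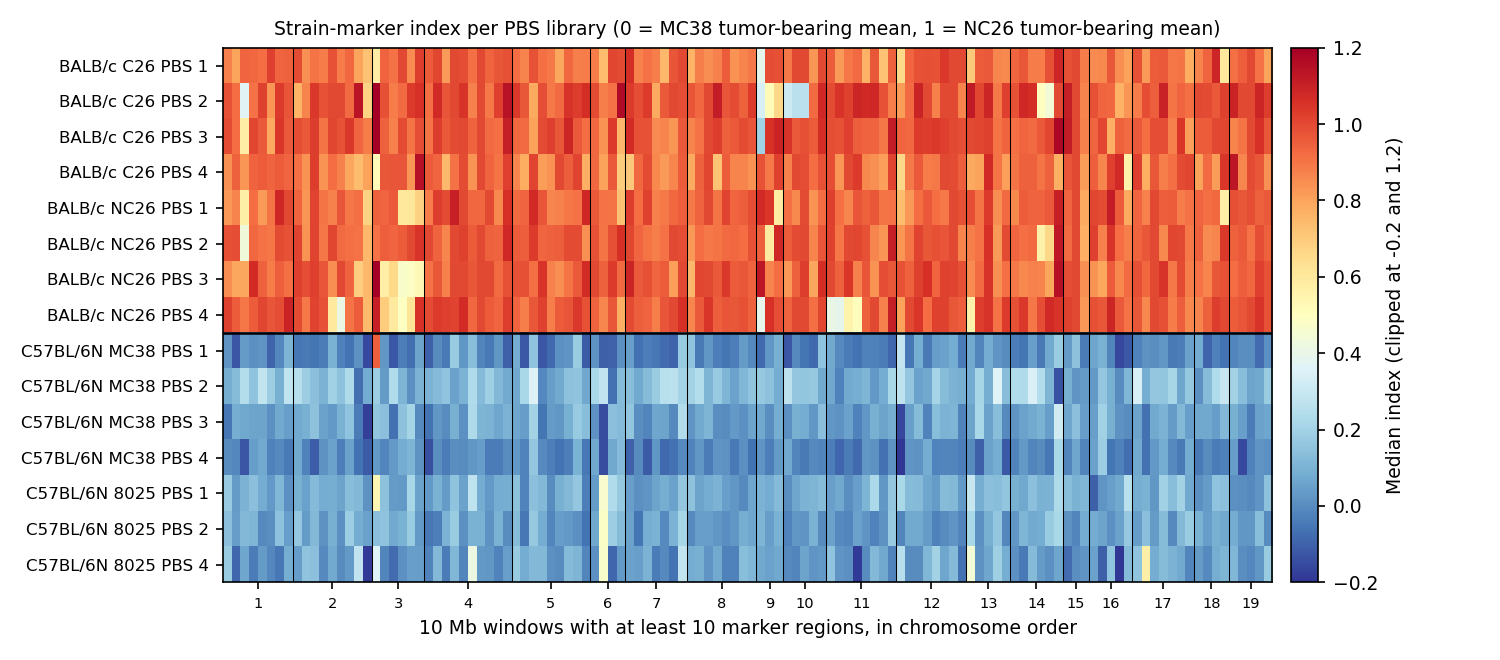
Each row is a PBS library and each column a 10 Mb window with at least 10 marker regions, grouped by chromosome number, and the colour is the median marker index (0 as in MC38 tumor-bearing animals, 1 as in NC26 tumor-bearing animals). The 8 BALB/c rows lie near 1 and the 7 C57BL/6N rows near 0, with blocks of lower index in 1 or more BALB/c libraries on chromosomes 2, 3, 9, 10, 11 and 14 among others.

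The blocks on chromosomes 2, 10 and 11 were also seen at regions with no signal in NC26 tumor-bearing animals. No such region on chromosomes 3, 9 or 14 reached 5 scaled tags in a BALB/c PBS library. How many such regions lie in the blocks of chromosomes 3, 9 and 14 was not counted, so their lack of hits sets no contrast. Of 84 regions at 0 in all 4 NC26 tumor-bearing libraries but averaging at least 10 scaled tags in MC38 tumor-bearing libraries, 6 of the 8 BALB/c PBS libraries had none at 5 or more scaled tags. C26 PBS replicate 2 had 6, of which 5 lay near Nhsl1 and 1 near Enpp1 on chromosome 10, and NC26 PBS replicate 4 had 3, near Mfap1b on chromosome 2 and near Psme4 and Ykt6 on chromosome 11. What sets these blocks apart was not tested, and the counts over all regions and promoters, over 24 gene lists and over the Glo1 stretch were also taken without C26 PBS replicate 2 and NC26 PBS replicate 4, a choice made after seeing the data. Leaving them out moved the total of called regions by over 1.5 times for 2 of these 25 lists and stretches, organic ion transporters and acute phase genes.

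Hepatocytes of the strains differed at 21750 of 156438 regions (13.9%) at an adjusted p under 0.05, of which 10360 were higher (6.62%) and 11390 lower (7.28%) in BALB/c. Of these, 9153 differed at least 2-fold (5.85%), 4974 higher (3.18%) and 4179 lower (2.67%). At 6573 regions (4.2%) no BALB/c library overlapped a C57BL/6N library. The largest differences leaned to loss in BALB/c, with 67 regions at least 16-fold higher and 125 at least 16-fold lower. Without C26 PBS replicate 2 and NC26 PBS replicate 4, 8023 regions were higher and 9824 lower. Within library series A alone 6012 were higher and 5363 lower, and within series B alone 3934 were higher and 5891 lower.

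Few or no regions passed between cohorts of the same strain. No region passed between the C26 PBS and NC26 PBS groups (0%), and edgeR's count model also called 0. There 8567 regions (5.48%) had an unadjusted p under 0.05, a share near the threshold itself. Between MC38 PBS and 8025 PBS, 7 regions were higher and 4 lower in MC38 PBS (0.00703%), and edgeR called 8 higher and 4 lower. These comparisons had 4 against 4 and 4 against 3 libraries, where the strain comparison had 8 against 7. All C26 PBS libraries were in series A and all 8025 PBS libraries in series B, so cohort was partly tied to series. The counts are thus not on a like footing with those between the strains, and smaller cohort differences could be missed.

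The strain difference was then read in animals the PBS comparison did not use. Between NC26 (BALB/c) and MC38 (C57BL/6N) tumor-bearing hepatocytes, 4 libraries each, 4350 regions were higher and 6592 lower (6.99%). Of the 21750 regions called in PBS animals, 92.6% had the same sign there, 7749 were called in the same direction and 5 in the opposite one. Of those called at least 2-fold in PBS animals, 51.6% of the higher and 68.0% of the lower regions were called in the same direction. Conversely, 70.8% of the 10942 regions called in tumor-bearing animals were called in PBS animals too. Tumor line and strain cannot be told apart in the tumor-bearing groups. A test of whether the strain difference itself changed with a tumor used the NC26 and MC38 cohorts alone, with 4 libraries in each group. It called 0 regions (0%), and edgeR called 3. Smaller changes could be missed with so few libraries. An unadjusted p under 0.05 was found at 7498 regions (4.79%), a share near the threshold itself.

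**Figure D2:**
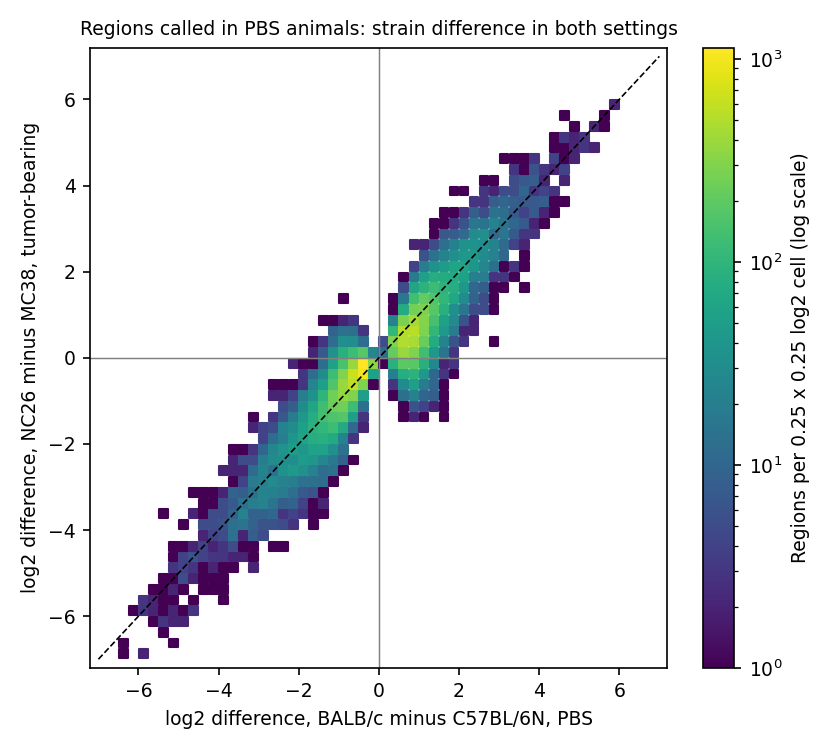
Regions called in PBS animals, by their log2 difference between BALB/c and C57BL/6N in PBS animals (x axis) and between NC26 and MC38 tumor-bearing animals (y axis), with colour for the number of regions on a log scale and the dashed line for equal differences. Most cells lie near the dashed line, and 92.6% of the regions have the same sign in both.

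Distal regions that were open in BALB/c and near background in C57BL/6N led the gains. The 10 largest by the naming rule had log2 differences of 4.88 to 5.57 and lay 10.0 to 501 kb from the start site of their nearest gene, none at a promoter. A region in an intron 11.8 kb from the start of Ginm1 had 53.2, 101 and 146 scaled tags (lowest, median, highest) in BALB/c and 0, 1.90 and 3.90 in C57BL/6N (log2 difference 5.57 ± 0.35 SE, adjusted p = 4.96e-09). A region 50.97 kb from Aldh8a1, an aldehyde dehydrogenase gene, had 141, 196 and 236 scaled tags in BALB/c and 2.47, 4.71 and 7.72 in C57BL/6N (log2 5.34 ± 0.18, adjusted p = 1.07e-19). The naming rule for the largest differences took regions where the strains do not overlap, so their separation is part of the choice. Both lie in the block of chromosome 10 where C26 PBS replicate 2 departed. Its values there were 75.8 at Ginm1 and 141 at Aldh8a1, and without it the log2 differences were 5.62 and 5.41.

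Other gains lay near genes of general cell function. A region 32.7 kb from Dicer1, the RNase that makes microRNAs, had 116, 166 and 191 scaled tags in BALB/c and 2.12, 3.57 and 7.17 in C57BL/6N (log2 5.16 ± 0.21). A region 11.8 kb from Rps29, a protein of the small ribosomal subunit, lies in an ERVL-MaLR retroviral repeat and had 93.6, 130 and 141 scaled tags in BALB/c and 0.62, 2.06 and 3.53 in C57BL/6N (log2 5.29 ± 0.19). Introns of Dlc1 and of Usp38, a deubiquitinase, held gains of 5.46 and 4.996 on the log2 scale, and regions nearest to Tspan17, Dcdc2c, Grin3a and Olfr112 held gains of 5.22, 5.01, 4.91 and 4.88. In tumor-bearing animals the differences were 4.64 to 5.39 at these 10 regions.

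The largest losses in BALB/c went to or close to 0. The 10 named by the rule had log2 differences of -6.44 to -5.55, and 2 of them were promoters. The promoter region of Adh6-ps1, an alcohol dehydrogenase pseudogene, had 0 in all 8 BALB/c libraries and 75.1, 79.95 and 110 scaled tags in C57BL/6N. Measured against a floor of 3 read ends over the 8 libraries together, it was at least 734-fold lower in BALB/c. By the same measure an intron region of Rassf3, a Ras association domain protein, was at least 588-fold lower and an intron region of Trim30d, of the TRIM30 family of innate immune regulators, at least 548-fold lower. A region 2.88 kb from the start of Fgl1, a fibrinogen-like protein that hepatocytes secrete, lies in an ERVK retroviral repeat and had 0, 0.50 and 1.92 scaled tags in BALB/c and 67.4, 115 and 149 in C57BL/6N (log2 -5.99 ± 0.25). A region nearest to Tnks, a tankyrase, had 0, 1.17 and 4.56 in BALB/c and 85.9, 116 and 180 in C57BL/6N (log2 -5.85 ± 0.37).

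At Nhsl1 1 library set the spread. Its region 37.1 kb from the start site had 0 in 7 BALB/c libraries and 61.2 scaled tags in C26 PBS replicate 2, against 86.8, 120 and 150 in C57BL/6N. The log2 difference was -6.29 ± 0.90 (adjusted p = 3.14e-04) and without that library -6.77 ± 0.20 (adjusted p = 5.61e-22). Within library series A, which holds that library, the adjusted p was 0.120.

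Near-complete losses outnumbered near-complete gains. Regions with a mean of at least 30 scaled tags in BALB/c and under 3 in C57BL/6N numbered 79, of which 0 were promoters and 79 were called the same way in tumor-bearing animals. The opposite set, under 3 in BALB/c and at least 30 in C57BL/6N, numbered 117, of which 10 were promoters and 112 were called the same way in tumor-bearing animals. Exactly 0 in all 8 BALB/c libraries, with a C57BL/6N mean of at least 10, was found at 54 regions, and 51 of them were also at 0 in the 4 NC26 tumor-bearing libraries. Exactly 0 in all 7 C57BL/6N libraries, with a BALB/c mean of at least 10, was found at 0 regions. How many of these regions lost BALB/c reads in alignment to mm10 was not tested.

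The authors' deposited peak calls per library were more even between the strains. A peak was called in all 8 BALB/c libraries and no C57BL/6N library at 449 tested regions, of which 441 were higher and 4 lower in BALB/c by the signal test. A peak was called in no BALB/c library and all 7 C57BL/6N libraries at 481, of which 2 were higher and 476 lower. Among 38896 regions with a peak in all 15 libraries, 1673 were higher and 3930 lower, with a median log2 difference of -0.06.

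**Figure D3:**
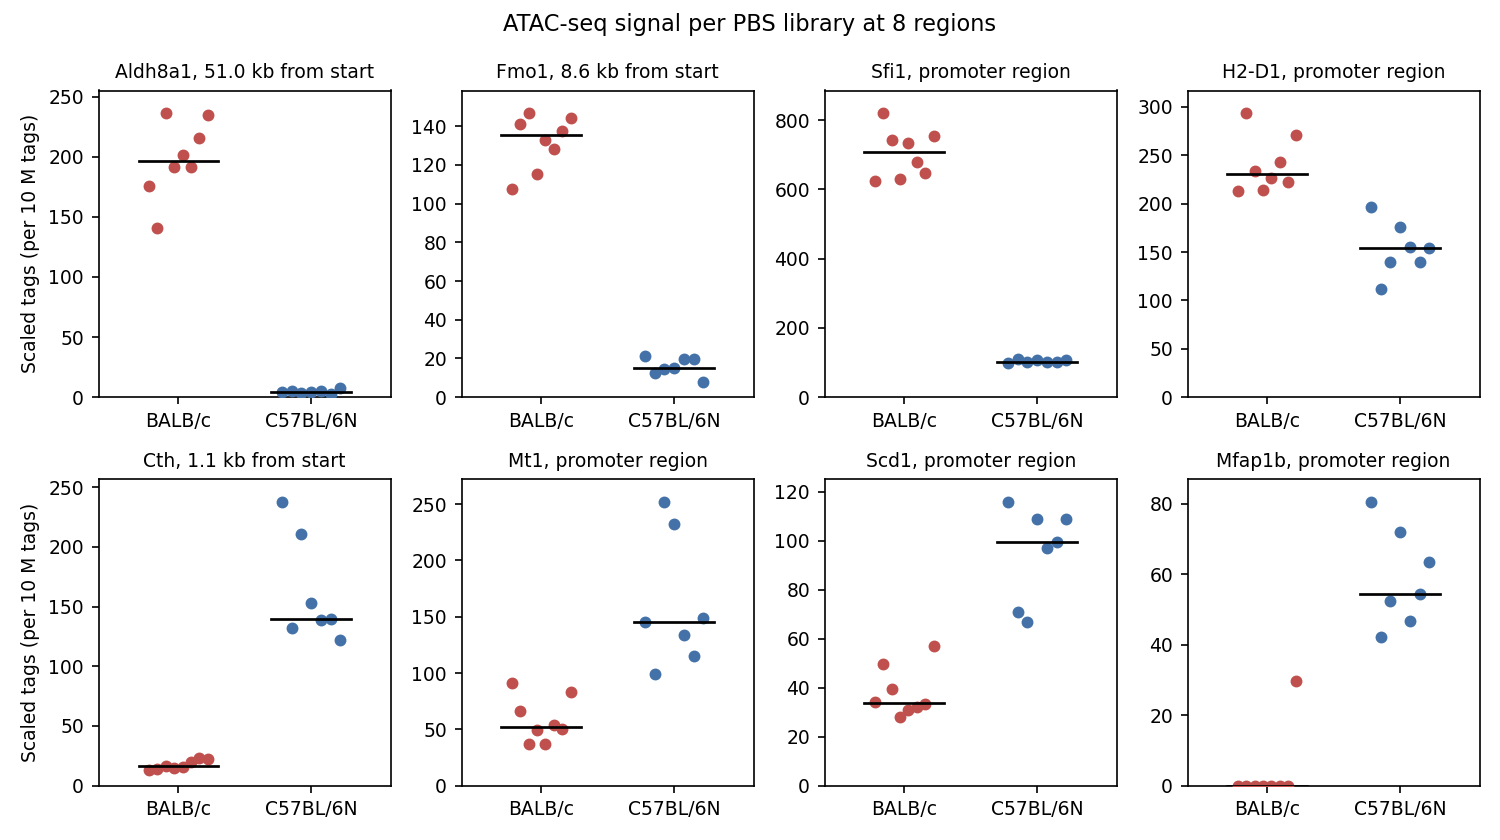
Scaled tags (per 10 M tags, linear axes from 0) in each PBS library at 8 regions, with BALB/c libraries in red on the left, C57BL/6N libraries in blue on the right and black lines for medians. BALB/c is higher at Aldh8a1, Fmo1, Sfi1 and H2-D1 and lower at Cth, Mt1, Scd1 and Mfap1b, and at Mfap1b a single BALB/c library (29.7) stands above the other 7 at 0.

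Promoters, taken as regions within 1 kb of a start site, differed mostly by small amounts. Of 31370, 804 were higher and 2917 lower in BALB/c (11.9%), and only 184 and 392 of them differed at least 2-fold. The median log2 difference over all promoters was -0.07, against 0.01 over all regions. The number of small promoter losses depended on the scaling: after cyclic loess 1294 were higher and 1820 lower, and with library totals alone 342 were higher and 1890 lower. With the promoter share of each library as a covariate, added after seeing the data, 482 were higher and 946 lower. Without NC26 PBS replicate 3, 601 were higher and 1780 lower. In introns 4944 of 72524 regions were higher and 4397 lower, and between genes 4180 of 50467 were higher and 3925 lower.

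The 8 named promoter gains were the largest among promoters where the strains do not overlap. Their number and their separation are thus part of the choice. The promoter of Sfi1, a centrin-binding protein of the centrosome, was among the strongest regions, with 625.3, 707 and 820 scaled tags in BALB/c and 99.4, 102 and 110 in C57BL/6N (log2 2.84 ± 0.08). The promoter of Kcnip3, a calcium-binding protein that interacts with potassium channels, had 33.97, 49.7 and 78.1 in BALB/c and 2.21, 3.90 and 6.06 in C57BL/6N (log2 3.48 ± 0.19). The other 6 were those of Tyms-ps, Rnase2a, Clec3b, Ttc34, Pak6 and Tmed6, with log2 differences of 3.20, 3.04, 2.85, 2.66, 2.55 and 2.17. Within library series B the call at Rnase2a was lost (adjusted p = 0.199). Clec3b encodes tetranectin, a plasminogen-binding protein, and Tmed6 a protein of transport between endoplasmic reticulum and Golgi.

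Promoter losses went further than promoter gains. Tm6sf2, which supports hepatic export of triglyceride in lipoproteins, had 2.17, 4.84 and 8.92 scaled tags at its region 967 bp from the start site in BALB/c and 45.8, 97.0 and 145 in C57BL/6N (log2 -4.05 ± 0.22). The promoter of Ccl27a, a chemokine, had 0.41 at most in BALB/c and 28.7, 41.1 and 65.9 in C57BL/6N (log2 -5.25 ± 0.25). That of Syne4, a nesprin of the nuclear envelope, had 0, 2.21 and 4.85 in BALB/c and 41.4, 50.5 and 81.6 in C57BL/6N (log2 -4.06 ± 0.29). The promoter of Mfap1b, a splicing factor gene, had 0 in 7 BALB/c libraries and 29.7 scaled tags in NC26 PBS replicate 4, against 42.3, 54.3 and 80.6 in C57BL/6N (log2 -4.64 ± 0.67, adjusted p = 3.08e-04; without that library -5.82 ± 0.25, adjusted p = 6.03e-18). Within library series B, which holds that library, the adjusted p was 0.253.

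The Serpina1 promoters shown above were all lower in BALB/c, by amounts that differed between copies. Serpina1a had 0.41 scaled tags at most in BALB/c and 44.3, 59.2 and 88.7 in C57BL/6N (log2 -5.84 ± 0.24). Serpina1d had 0.93, 2.07 and 2.49 in BALB/c and 80.2, 99.2 and 148 in C57BL/6N (log2 -5.16 ± 0.19), and Serpina1b had 4.64, 7.12 and 9.10 in BALB/c and 105, 159 and 184 in C57BL/6N (log2 -4.11 ± 0.16). Serpina1e had 5.12, 7.41 and 9.88 in BALB/c and 23.7, 48.4 and 69.6 in C57BL/6N (log2 -2.21 ± 0.24). Serpina1c had 49.3, 73 and 97.2 in BALB/c and 115, 134 and 172 in C57BL/6N (log2 -0.83 ± 0.11). At these regions Serpina1a and Serpina1d were lowest in BALB/c, Serpina1b and Serpina1e lay at a like level above them, and Serpina1c was highest. The regions were not chosen alike. Those of Serpina1a, Serpina1d and Serpina1b were named for their large falls and hold the lowest log2 difference of each gene. The lowest regions of Serpina1e and Serpina1c were at -5.32 and -2.87. Another Serpina1a promoter region, 8 bp from the start site, is not given here. The order of the copies may depend on this choice.

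The difference was not limited to the promoters. Of the regions with a copy as nearest gene, 17 of 28 were lower at Serpina1a, 10 of 27 at Serpina1b, 15 of 30 at Serpina1c, 12 of 17 at Serpina1d and 19 of 24 at Serpina1e, with 4 higher at Serpina1b and 2 higher at Serpina1d. Serpina1f, a related gene at the edge of the cluster, had 2 of 5 lower. Over the Serpina1 and Serpina3 clusters together, 24 of 280 regions were higher and 100 lower (44.3%, against 13.5% of the 141661 regions within 100 kb of a start site), and without C26 PBS replicate 2 and NC26 PBS replicate 4, 19 were higher and 89 lower. The promoter of Serpina6, which encodes corticosteroid-binding globulin and neighbors the cluster, had 79.2, 87.6 and 116 in BALB/c and 89.9, 117 and 172 in C57BL/6N (log2 -0.30 ± 0.08, adjusted p = 0.0123), and after cyclic loess its adjusted p was 0.0870. The copies are near-identical, so a read from 1 copy can be placed at another, and the number of copies is known to vary between mouse strains.

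**Figure D4:**
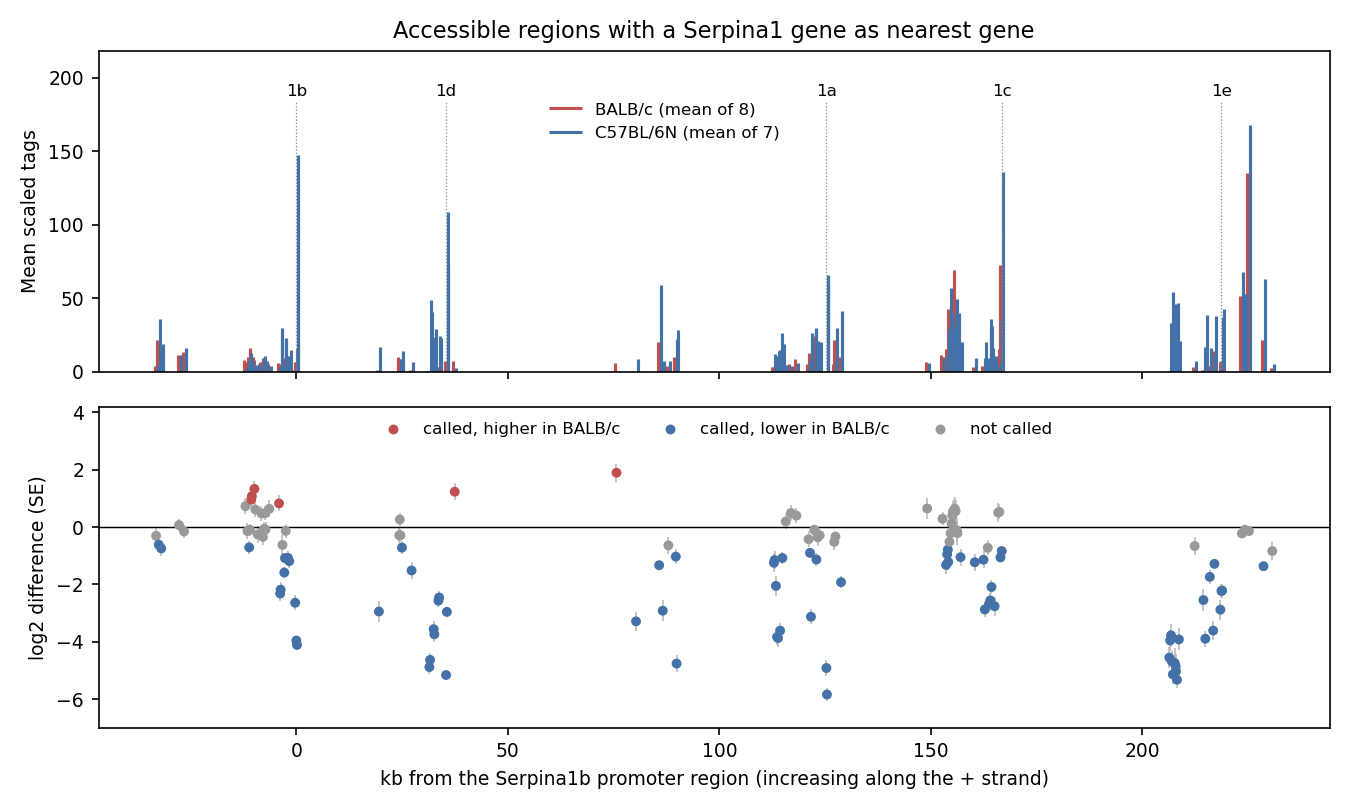
Regions with a Serpina1 gene as nearest gene, by distance in kb from the Serpina1b promoter region: mean scaled tags in BALB/c (red) and C57BL/6N (blue) above, and log2 difference with SE below, coloured where called. At the promoter regions named in the text the red signal is lowest at 1a and 1d, somewhat higher at 1b and 1e and highest at 1c. Most called regions lie below 0.

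Genes of the MHC, which present peptides to T cells, were the list with the largest share of called regions. Of 114 regions at 29 genes, 23 were higher and 29 lower (45.6%, against 13.5% of regions within 100 kb of a start site). Their median log2 difference was -0.01. The classical class I promoters went opposite ways: H2-D1 had 213, 230 and 293 scaled tags in BALB/c and 112, 155 and 197 in C57BL/6N (log2 0.78 ± 0.07), and H2-K1 had 63.0, 84.3 and 116 in BALB/c and 106, 141 and 179 in C57BL/6N (log2 -0.67 ± 0.09). H2-Q10, a secreted class I protein of liver, had 115, 132 and 172 in BALB/c and 151, 175 and 244 in C57BL/6N (log2 -0.33 ± 0.08), a call lost after cyclic loess (adjusted p = 0.0667).

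The nonclassical class I genes showed the strongest losses. Regions at the starts of H2-Bl and H2-T10 had 0.72 and 0.96 scaled tags at most in BALB/c, and medians of 53.5 and 39.6 in C57BL/6N (log2 -5.51 ± 0.25 and -5.18 ± 0.25). H2-Q7 had 2.55, 4.92 and 7.47 in BALB/c and 33.9, 42.6 and 54.2 in C57BL/6N (log2 -2.82 ± 0.22). The class II promoter of H2-Aa was weak in both strains, with medians of 4.2 in BALB/c and 10.1 in C57BL/6N (log2 -1.07 ± 0.24, adjusted p = 0.00180), a call lost with the promoter share as covariate (adjusted p = 0.0807). BALB/c and C57BL/6 carry the d and b haplotypes of this complex, and the class I genes are close copies of each other.

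**Figure D5:**
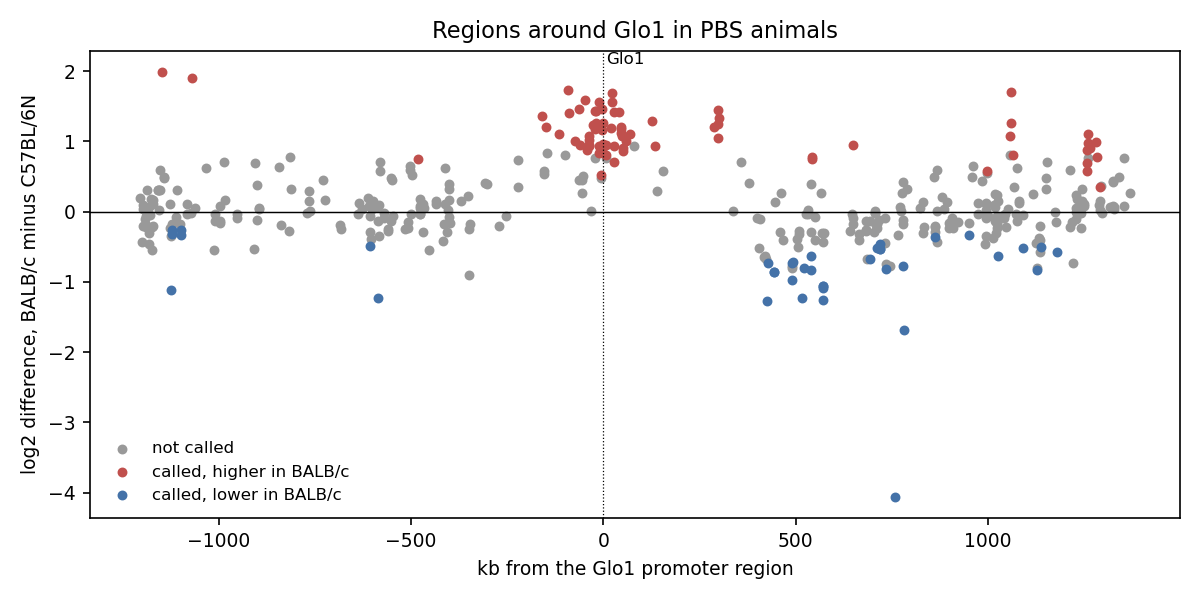
Log2 difference between BALB/c and C57BL/6N of tested regions by distance in kb from the Glo1 promoter region. Points around the Glo1 start form a block near 1, with 52 of 71 called higher and 0 lower, and points on either side scatter around 0. The bounds of the block were set with these values known.

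Around Glo1, which encodes the methylglyoxal-detoxifying enzyme glyoxalase 1, a whole stretch was higher in BALB/c by a like amount. On chromosome 17 over chr17:30452341-30990628 (mm10), which holds Btbd9, Glo1, Dnah8, Glp1r and Umodl1, 52 of 71 regions were higher and 0 lower, with a median log2 difference of 1.00 (quartiles 0.80 and 1.25). Without C26 PBS replicate 2 and NC26 PBS replicate 4, 46 were higher and 0 lower. In tumor-bearing animals the median was 1.03. In the 1 Mb before it 3 of 145 regions were higher and 7 lower (median 0.03), and in the 1 Mb after it 17 of 214 were higher and 31 lower (median -0.09). The bounds of the stretch were set with these values known. The count inside it and the contrast with both sides thus partly follow from where the bounds were drawn. The Glo1 promoter itself had 158, 201 and 255 scaled tags in BALB/c and 98.7, 116 and 181 in C57BL/6N (log2 0.83 ± 0.08), with some overlap. A duplication that spans Glo1 is known in several inbred strains. Copy number and accessibility cannot be told apart here.

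Differences ran together along the genome. Of 1692 windows of 1 Mb with at least 20 tested regions, the median had 11.9% of its regions called, the highest 80.6%, and 33 had none. The window with the highest share, on chromosome 16 at 72 to 73 Mb over Robo1, an axon guidance receptor, had 3 of 31 regions higher and 22 lower. On chromosome 19 at 48 to 49 Mb over Sorcs3 and Cfap58, 21 of 30 regions were higher and 0 lower. On chromosome 1 at 158 to 159 Mb over Brinp2 and Pappa2, 18 of 27 were higher and 3 lower. At the other end, 68 regions at 87 to 88 Mb of chromosome 12, over Gstz1, Snw1 and Ahsa1 among others, held 0 calls, as did 65 at 6 to 7 Mb of chromosome 15, over C9, Rictor and Osmr. Across the same windows, the called share in tumor-bearing animals had a Spearman correlation of 0.715 with that in PBS animals, a description over windows that share no library between the comparisons.

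By chromosome, the called share was between 11.2% on chromosome 15 and 18.4% on chromosome 19. Chromosome 19 leaned to gains, with 764 regions higher and 273 lower, and chromosome 4 to losses, with 687 higher and 1107 lower. Runs of at least 5 neighboring regions called in 1 direction numbered 189 higher (1306 regions) and 176 lower (1146 regions).

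The longest runs lay at 1 or 2 genes each. Over 31 kb at Ykt6, a SNARE of vesicle fusion, and Camk2b, a calcium/calmodulin-dependent kinase, 22 neighboring regions were lower, with a median log2 difference of -2.92 and 21 of them called lower in tumor-bearing animals too. In this run the median region had 15.5 scaled tags in NC26 PBS replicate 4, 1.22 to 2.07 in the other BALB/c libraries and 22.1 to 40.9 in C57BL/6N libraries. Without that library all 22 were called lower and the median was -3.39. Over 637 kb at Adcy2, an adenylyl cyclase, 20 were lower (median -2.51), over 562 kb at Sntg1, a syntrophin, 16 were lower (median -2.71), and over 15.4 kb at Sh3bgrl3 and Cep85, 16 were lower (median -2.42). The longest run of gains was 21 regions over 19.97 kb at 1600014C10Rik (median 1.79), followed by 15 at Gm30551 (median 2.40) and 15 at Dnah8 (median 1.12) within the Glo1 stretch.

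Regions in retroviral repeats had a higher called share than regions outside repeats. Of 9719 tested regions in LTR repeats, 994 were higher and 794 lower (18.4%), against 7805 higher and 9358 lower of 127136 regions outside repeats (13.5%). Within ERVK elements, which include intracisternal A particles, 363 of 3186 were higher and 264 lower (19.7%). ERV1 elements had 93 of 1000 higher and 117 lower (21%), and LINE elements 390 of 4293 higher and 288 lower (15.8%). These shares are descriptions, since repeats are also where reads are hardest to place.

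Major urinary proteins, the secreted pheromone carriers of mouse liver, are another family of near-identical copies. Of 110 regions at 17 genes, 24 were higher and 6 lower (27.3%). A region 9.82 kb from Mup5 had 33.3, 54.4 and 62.5 scaled tags in BALB/c and 14.1, 21.5 and 34.5 in C57BL/6N (log2 1.25 ± 0.15). A region 7.64 kb from Mup11, in an ERVK repeat, had 0 in all 8 BALB/c libraries and 6.17, 11.2 and 19.2 in C57BL/6N, at least 95.9-fold lower in BALB/c. The natural killer receptor clusters and their ligands had 2 of 98 regions higher and 28 lower (30.6%, against 13.5% of regions within 100 kb of a start site), or 2 higher and 19 lower without C26 PBS replicate 2 and NC26 PBS replicate 4. Among these Clec2h, a ligand of an inhibitory natural killer receptor, had a region at 0 in all 8 BALB/c libraries and at 15.9, 17.5 and 26 in C57BL/6N.

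Genes of drug metabolism had called shares near the 13.5% of all regions within 100 kb of a start site. Of 393 regions at CYP2 genes, 33 were higher and 22 lower (13.99%), and of 219 at CYP3A, CYP4 and CYP1 genes, 16 were higher and 17 lower (15.1%). A region 60.2 kb from Cyp2c29, a xenobiotic-metabolizing P450, had 0.35 at most in BALB/c and 11.9, 20.9 and 31 in C57BL/6N (log2 -4.12 ± 0.29). The promoter of Cyp2c23, a P450 that oxidizes arachidonic acid, had 1.45, 2.48 and 4.98 in BALB/c and 9.17, 15.6 and 26 in C57BL/6N (log2 -2.36 ± 0.26). A region 23.5 kb from Cyp4f18, in an ERVK repeat, was at 0 in all 8 BALB/c libraries and at 25.6, 30.0 and 39 in C57BL/6N.

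Conjugation enzymes had 31 of 570 regions higher and 30 lower (10.7%, against 13.5% of regions within 100 kb of a start site). An intron region of Tpmt, the thiopurine methyltransferase, had 14.5, 28.6 and 41.3 scaled tags in BALB/c and 1.41, 2.53 and 3.60 in C57BL/6N (log2 3.33 ± 0.22). Carboxylesterases and aldo-keto reductases had 13 of 343 higher and 22 lower (10.2%), among them a region 20.1 kb from Akr7a5 with medians of 16 in BALB/c and 91.6 in C57BL/6N (log2 -2.50 ± 0.16). Steroid enzymes had 11 of 222 higher and 9 lower (9.01%), and organic ion transporters 25 of 520 higher and 16 lower (7.88%), or 16 higher and 11 lower without C26 PBS replicate 2 and NC26 PBS replicate 4. Among the transporters, a region in Slco2b1, an uptake carrier of organic anions, had 26.6, 34 and 45.2 in BALB/c and 64.4, 147 and 206 in C57BL/6N (log2 -1.77 ± 0.14).

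Among genes that depend on growth hormone or differ between the sexes in mouse liver, 35 of 786 regions were higher and 46 lower (10.3%). Of all regions within 100 kb of a start site, 13.5% were called. A region 8.64 kb from Fmo1, a flavin monooxygenase, had 108, 135 and 147 scaled tags in BALB/c and 7.72, 14.8 and 21.1 in C57BL/6N (log2 3.15 ± 0.16). The promoter of Nudt7, a peroxisomal coenzyme A diphosphatase, had 79.6, 89.5 and 114 in BALB/c and 184, 198 and 246 in C57BL/6N (log2 -1.08 ± 0.08). The groups did not overlap at either. At Cyp4a12a, a male-biased fatty acid hydroxylase, the promoter had 8.33, 16.2 and 21.7 in BALB/c and 5.06, 8.37 and 12.8 in C57BL/6N (log2 1.02 ± 0.23, adjusted p = 0.00160), and with the promoter share as covariate its adjusted p was 0.0546. Another Cyp4a12a region, 17.7 kb from the start site, went the other way, with no reads in any BALB/c library. Measured against the floor of 3 read ends over the BALB/c libraries together, it was at least 52.2-fold lower in BALB/c.

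Zhx2 is a hepatic repressor gene known to be disrupted in the BALB/cJ substrain. Its promoter had 8.33, 13.8 and 18.3 scaled tags in BALB/c and 9.80, 12.8 and 19.5 in C57BL/6N (log2 0.09 ± 0.19, adjusted p = 0.831). No tested region of Afp, the best known gene that Zhx2 silences, lay within 1 kb of its start site. Over Zhx2 and the genes reported to respond to it, 7 of 154 regions were higher and 16 lower (14.9%). Over all regions within 100 kb of a start site, the called share was 13.5%. The substrain is not given in the labels used here.

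Among called regions of lipid genes, more were lower than higher in BALB/c. Of 697 regions of lipogenesis, triglyceride and lipoprotein genes, 35 were higher and 88 lower (17.6%), with a median log2 difference of -0.11. Over regions within 100 kb of a start site 8742 were higher and 10344 lower (13.5%, median 0.00), and over hepatocyte marker regions 2 were higher and 43 lower. The part of hepatocyte content in these counts was not tested. Scd1, the stearoyl-CoA desaturase, had 28.3, 33.7 and 57 scaled tags at its promoter region in BALB/c and 66.7, 99.8 and 116 in C57BL/6N (log2 -1.12 ± 0.12). An intron region of Acacb, the acetyl-CoA carboxylase that controls fatty acid oxidation, had 6.37, 7.97 and 10.8 in BALB/c and 30.0, 34.9 and 43.3 in C57BL/6N (log2 -1.97 ± 0.18). In the other direction, an intron region of Lpin1, a phosphatidate phosphatase, had 12.6, 14.3 and 24.3 in BALB/c and 0, 0.65 and 2.21 in C57BL/6N (log2 3.64 ± 0.30), while the Lpin1 promoter did not pass (log2 -0.52 ± 0.21, adjusted p = 0.132).

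Cholesterol genes had 19 of 383 regions higher and 33 lower (13.6%, against 13.5% of regions within 100 kb of a start site). A region 18.2 kb from Insig2 and a region 67.2 kb from Insig1, both sterol-sensing regulators of SREBP, differed in opposite directions, with medians of 35.8 in BALB/c and 8.81 in C57BL/6N at Insig2 (log2 2.23 ± 0.17) and of 15.8 in BALB/c and 63.5 in C57BL/6N at Insig1 (log2 -1.68 ± 0.17). Genes of fatty acid oxidation had 19 of 453 higher and 27 lower (10.2%). Acaa1a, a peroxisomal thiolase, had an intron region at 23.2, 44.9 and 61.6 in BALB/c and 5.69, 9.52 and 10.8 in C57BL/6N (log2 2.42 ± 0.20).

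Amino acid genes had a called share like that of all regions within 100 kb of a start site (13.5%), with most called regions lower. Of 762 regions of urea cycle and amino acid catabolism genes, 16 were higher and 84 lower (13.1%), with a median log2 difference of -0.14, beside the 2 higher and 43 lower hepatocyte marker regions. A region 1.09 kb from Cth, the cystathionine gamma-lyase that makes cysteine and hydrogen sulfide, had 12.8, 16.2 and 23.5 scaled tags in BALB/c and 122, 139 and 238 in C57BL/6N (log2 -2.96 ± 0.15). Aldh4a1 and Prodh2, both of proline and hydroxyproline breakdown, had intron regions with log2 differences of -0.97 ± 0.09 and -1.09 ± 0.11. Bile acid genes had 17 of 397 higher and 23 lower (10.1%), with a region 19.6 kb from Nr1h4, the bile acid receptor FXR, at 22.8, 32.1 and 41.1 in BALB/c and 79.8, 103 and 124 in C57BL/6N (log2 -1.60 ± 0.12).

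Genes of glucose handling had 31 of 640 regions higher and 59 lower (14.1%, against 13.5% of regions within 100 kb of a start site). A region 30.9 kb from Ppp1r3b, a glycogen-targeting phosphatase subunit, had medians of 4.60 in BALB/c and 36 in C57BL/6N (log2 -2.63 ± 0.25), and an intron region of Pcx, the pyruvate carboxylase, of 63.0 in BALB/c and 27.9 in C57BL/6N (log2 1.28 ± 0.13). Hepatocyte transcription factor genes had 28 of 924 higher and 54 lower (8.87%), and ribosomal protein genes 19 of 360 higher and 34 lower (14.7%).

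Clock genes had 7 of 269 regions higher and 31 lower (14.1%, against 13.5% of regions within 100 kb of a start site). Of their 61 promoter regions 1 was higher and 15 lower, against 804 higher and 2917 lower of all 31370 promoters. The median log2 difference of the 269 regions was -0.06, and after cyclic loess it was 0.00. All livers were taken at ZT 9. The promoter of Nr1d1, the repressor REV-ERB alpha, had 110, 146 and 181 scaled tags in BALB/c and 184, 191 and 230 in C57BL/6N (log2 -0.43 ± 0.09, adjusted p = 4.77e-04), and the groups did not overlap. With the promoter share as covariate its adjusted p was 0.0506. Per2, a repressor of the clock, had 141, 177 and 207 in BALB/c and 197, 228 and 273 in C57BL/6N (log2 -0.23 ± 0.08, adjusted p = 0.0382), and after cyclic loess its adjusted p was 0.348. With the promoter share as covariate the Per2 difference was -0.08 (adjusted p = 0.714). Its call was also lost with library totals alone (adjusted p = 0.123), with a replicate block (0.178) and in several fits that left out 1 library. An intron region of Arntl, the activator BMAL1, had medians of 21.8 in BALB/c and 52.9 in C57BL/6N (log2 -1.22 ± 0.16), and a region 1.55 kb from Rora, a nuclear receptor that activates Arntl, of 13.5 in BALB/c and 1.35 in C57BL/6N (log2 2.64 ± 0.26).

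Immune and stress genes were mixed. For scale, 13.5% of all regions within 100 kb of a start site were called. Interferon response genes had 22 of 262 regions higher and 20 lower (16.03%), with an exon region assigned to Ifit1, an antiviral RNA-binding protein, at 18.8, 24.4 and 38.5 in BALB/c and 1.25, 2.02 and 4.23 in C57BL/6N (log2 3.24 ± 0.22). The promoter of Gbp10, an interferon-induced GTPase, had 6.19, 9.45 and 22.3 in BALB/c and 36.6, 58.9 and 86.1 in C57BL/6N (log2 -2.15 ± 0.20). Acute phase and complement genes had 24 of 556 higher and 38 lower (11.2%), or 15 higher and 26 lower without C26 PBS replicate 2 and NC26 PBS replicate 4. Small losses at the promoters of C3 and C4b, both complement components, had log2 differences of -0.24 ± 0.08 and -0.32 ± 0.10, and after cyclic loess their adjusted p were 0.348 and 0.142.

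Metallothionein promoters were lower in BALB/c PBS animals. Mt1, which binds zinc and copper, had 37.2, 52.1 and 91.6 scaled tags in BALB/c and 98.7, 146 and 252 in C57BL/6N (log2 -1.15 ± 0.26, adjusted p = 0.00928), and Mt2 had 3.62, 7.08 and 11.7 in BALB/c and 8.11, 23.1 and 57.5 in C57BL/6N (log2 -1.52 ± 0.33, adjusted p = 0.00337). In NC26 against MC38 tumor-bearing animals the log2 differences were -0.34 and 0.21, neither called. The change of the difference with a tumor, tested in the NC26 and MC38 cohorts alone, did not pass (adjusted p = 0.982 for Mt1 and 0.946 for Mt2). With the promoter share as covariate the adjusted p were 0.161 and 0.0669. Over metallothioneins and NRF2 targets, 14 of 293 regions were higher and 14 lower (9.56%, against 13.5% of regions within 100 kb of a start site).

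Over all 31370 tested promoter regions, 804 were higher and 2917 lower in BALB/c (11.9%). Of 50 genes chosen for known strain differences or as hepatocyte standards, with earlier results of these data known, 46 had a tested promoter region. Of these, 5 were higher, 14 lower and 27 not called. Those not called included Alb, the albumin gene that drives the Cre of these animals, with 208, 255 and 332 scaled tags in BALB/c and 228, 291 and 385 in C57BL/6N (log2 -0.11 ± 0.11, adjusted p = 0.601). Nnt, the mitochondrial transhydrogenase gene whose deletion marks C57BL/6J, had 28.6, 40.8 and 58.4 in BALB/c and 26.8, 39.7 and 54.9 in C57BL/6N (log2 0.34 ± 0.15, adjusted p = 0.120). Ahr, the aryl hydrocarbon receptor, Cyp7a1, the rate-limiting enzyme of bile acid synthesis, and Hc, complement C5, had log2 differences of -0.07 ± 0.08, -0.16 ± 0.12 and 0.26 ± 0.24. Car3, a carbonic anhydrase, had 57.2, 87.9 and 126 in BALB/c and 26.9, 43.4 and 82.2 in C57BL/6N (log2 1.11 ± 0.20), with the highest C57BL/6N value in MC38 PBS replicate 1, and without that library the difference was 1.36 ± 0.17. Elovl3, a fatty acid elongase, had 58.7, 68.1 and 88.0 in BALB/c and 45.8, 49 and 67.9 in C57BL/6N (log2 0.46 ± 0.11, adjusted p = 0.00274), a call lost with library totals alone (adjusted p = 0.200) and with the NC26 and MC38 cohorts alone (0.101).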

How the data were processed

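ATAC-seq of INTACT-purified hepatocyte nuclei was analysed in 15 PBS libraries and 8 tumor-bearing ones. The submitters' processing notes name mm10, BWA 0.7.5a-r405, SAMtools and HOMER. How duplicates and peaks were handled is not given in the sources used here. Each signal value, per the file headers, counts tags within 400 bp windows on merged peaks, which the authors scaled to 10 M tags per library. Multiplied by each library's total, 100% of values came out as whole read ends (tolerance 0.05, with each end of a pair counted as 0.5 tag). Each region carries the gene with the nearest start site in the authors' annotation, and may act on another gene.

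Because the values are normalized, limma 3.58.1 (limma-trend, robust) was fitted to log2(value + 1) after TMM scaling in R 4.3.3, with strain and library series as terms. Folds on this scale understate changes of low regions. Regions passed a filter of at least 10 read ends in enough libraries and 15 in all. P-values were adjusted by Benjamini-Hochberg over 156438 regions, with calls under 0.05. edgeR 4.0.16 (20141 calls) and DESeq2 1.42.0 (22075 calls) on recovered read ends were alternatives. The scripts were tested on simulated data. Read ends of PCR products without molecular identifiers are not independent molecules, so floors cover counting error only.

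Named regions were, among those with an adjusted p under 0.05, at least median signal and no overlap between strains, 1 per gene and without predicted genes, the 10 largest in each direction and the 8 largest promoters in each direction. Called promoters of a panel of 50 genes, and up to 3 genes with the lowest adjusted p from each of 24 pathway and 7 marker lists (regions within 100 kb), were named whether or not the strains overlapped. The longest runs and the windows with the highest and lowest shares were also named. Uncalled panel promoters, Psme4 and Enpp1 were chosen after their values were seen. The members and lists were chosen with earlier results of these data known. Sex chromosomes were left out of the tests. Promoter sequences are RefSeq's and were aligned with MAFFT 7.526. Gene families with near-identical copies (Serpina1, Mup, H2) have uncertain read placement.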

Additional observations from a re-analysis of the deposited data

Results flagged for a closer look

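Of 78 groups of 7 or 8 libraries checked for a library far from the others, 8 had one, where chance flags about 1 in 20 groups. At Nhsl1, C26 PBS replicate 2 had 61.2 scaled tags and the other BALB/c libraries 0. At Mfap1b, NC26 PBS replicate 4 had 29.7 and the other BALB/c libraries 0. Both libraries departed from the BALB/c level along the surrounding stretch of the chromosome.

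Among BALB/c libraries, NC26 PBS replicate 3 was low near Rps29, with 93.6 scaled tags against 120 to 141 in the others. Among C57BL/6N libraries, MC38 PBS replicate 1 was high near Rassf3, with 109 against 53 to 77.1 in the others. A few read ends stood out where the other BALB/c libraries were at or near 0: 0.83 scaled tags near Lbx1 in NC26 PBS replicate 1, 0.72 near H2-Bl in C26 PBS replicate 4 and 0.96 near H2-T10 in C26 PBS replicate 2. The deepest BALB/c library was C26 PBS replicate 1 with 23.4 M tags, against 12.1 to 16.5 M in the others.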

How the results depend on the processing

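The 21750 regions called between BALB/c and C57BL/6N became 14034 with the NC26 and MC38 cohorts alone, 11489 with the promoter share as covariate, 11375 within library series A and 9825 within series B, and no call shared with the full comparison changed sign in any of these. Promoter calls (3721) became 2378, 1428, 1719 and 1250 under the same alternatives and 2232 with library totals alone. Leaving out 1 library gave 15704 to 22531 calls, and 2381 to 4100 at promoters, the fewest both times without NC26 PBS replicate 3. Without both C26 PBS replicate 2 and NC26 PBS replicate 4, 17847 regions and 3202 promoters were called. Tumor-bearing calls (10942) were 19778 with all 35 libraries in 1 fit and 6869 to 12892 with 1 library left out (6869 without MC38 tumor replicate 3, 7179 without NC26 tumor replicate 4). Calls shared with tumor-bearing animals (7749) were 5478 to 8410. Between C26 PBS and NC26 PBS leaving out 1 library gave 0 to 7 calls, and between MC38 PBS and 8025 PBS (11 calls) 2 to 34, with 20 under library totals. The cause of these shifts was not tested. Of 134 named regions that were called, 103 kept their call under every alternative run and 31 lost it in at least 1. Signal depth limits regions of a few scaled tags.

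Deviations from the group means of same-numbered libraries in different cohorts correlated at -0.169 to 0.118, with both signs. The main fit therefore has no replicate block. Such correlations cannot show whether libraries were processed in sets. With a replicate block 16610 regions (7953 higher, 8657 lower) and 2504 promoters were called between the strains, and 34 between MC38 PBS and 8025 PBS.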

Other observations

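The Sun1/sfGFP allele is known to sit at the Gt(ROSA)26Sor locus on chromosome 6. Within 3 Mb of that gene 30 of 471 regions were called between the strains (6.37%, against 13.9% of all regions), and 7 differed at least 2-fold (1.49%, against 5.85%).

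The window of chromosome 3 at 10 to 20 Mb, which holds Car3, had an index of 0.95 in MC38 PBS replicate 1 (12 markers) and 0.04 to 0.54 in the other C57BL/6N libraries. At 50 to 60 Mb of chromosome 6 all 3 libraries of the 8025 PBS group had indices of 0.47 to 0.48 (19 markers). At 20 to 30 Mb of chromosome 17, 8025 PBS replicate 4 had 0.57 (23 markers), and the other C57BL/6N libraries had -0.07 to 0.14.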
